A study of Homo sapiens with 6 samples.

Results

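Aminoacyl-tRNA synthetases are the enzymes that join each amino acid to its tRNA. The set described here holds 35 nuclear genes for these enzymes, 19 that serve the cytosol and 16 that serve the mitochondrion, out of 18132 genes that had a probe set annotated to a single gene on the array. Members were taken by gene symbol, and all 35 had at least 1 such probe set, 88 in all. A further 4 probe sets annotated to a member and to a second gene were not used. All 35 members passed the filter on dim probe sets and were among the 13407 genes tested.

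The cells were SH-SY5Y, an established line from a human neuroblastoma, kept in a mixture of MEM and F12 with fetal bovine serum. The manganese group held 3 cultures exposed to 100 µM manganese for 24 h, which per the labels is the LC50, the median lethal concentration, over 5, and the control group held 3 untreated cultures. Arrays are labelled as biological replicates, and no vehicle, genotype change or other agent is named. Whether the cultures were started separately is not said, so the p-values measure the spread between these arrays, which may be partly technical. Values are log2 expression values made with RMA, the method that corrects background, sets all arrays to one distribution and summarizes each probe set. In RNA from whole cultures, less RNA per cell and fewer cells that make it cannot be told apart.

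The arrays were not alike in ways that touch the results. Poly(A) spike-in RNAs, which are added before labelling, averaged 7.80 to 7.91 on the log2 scale on the manganese arrays, 7.79 on control 2, 6.14 on control 1 and 5.81 on control 3. Control 1 correlated with the other arrays at r = 0.967 to 0.981 across genes, against 0.993 to 0.996 among the manganese arrays. Differences are therefore given against all 3 controls and also against control 2 alone. All 11 noradrenergic markers measured were above the 40th percentile of every array, and their summed log2 level was 117.67 to 118.60 on manganese arrays and 120.04 to 121.75 on controls. The markers did not move alike. Against the 3 controls RET was at -1.09, STMN2 at -0.71 and ISL1 at -0.58, while the median of the 11 was -0.12. In all 9 were lower and 2 higher, PHOX2A at 0.22 and TH at 0.12. The part of this marker difference and of the spike-in difference in the results below was not tested. Of the markers of other cells, COL3A1, DCN and LUM (fibroblasts), EPCAM and CDH1 (epithelium) and PTPRC (leukocytes) were not above that percentile on every array. That left 4 of 7 fibroblast, 2 of 4 epithelial and 2 of 3 leukocyte markers above it. The summed log2 level of the fibroblast markers was 37.38 to 38.07 in manganese and 37.33 to 37.94 in controls. That of the epithelial markers was 19.98 to 20.57 in manganese and 18.91 to 19.89 in controls, and that of the leukocyte markers 12.16 to 12.42 in manganese and 11.93 to 12.12 in controls. Their part in the results was not tested either.

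Synthetases fall into 2 structural classes, called I and II, that differ in the fold of the catalytic domain. In the cytosol several of them are bound together with scaffold proteins in a multi-synthetase complex, while most mitochondrial enzymes are encoded by separate nuclear genes and imported. GARS1 and KARS1 each encode both a cytosolic and a mitochondrial form. When amino acids run short or proteins misfold, phosphorylation of the translation factor eIF2 raises translation of the transcription factor ATF4. ATF4 then switches on amino acid transporters, synthesis enzymes and many cytosolic synthetases through DNA elements shared by C/EBP and ATF proteins.

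That element could be read in the promoters of the members. RefSeq promoter windows of 300 bases (250 before and 50 after the first transcribed base, build GRCh38.p14) were matched by symbol for 30 of the 35 members. AARS2, LARS1, VARS1, VARS2 and YARS1 were not matched. The core of the element, TGATGNAA, was searched on both strands. It was present in 7 of 16 cytosolic synthetase genes (43.8%), in 1 of 14 mitochondrial ones (7.14%, YARS2) and in 4.46% of the 27305 genes with a window. The same 7 genes were 7 of the 10 matched members of a list of synthetases linked to ATF4. The list was drawn up from general knowledge of ATF4 targets, with results of these data known. A match is a description of the letters and not evidence of a binding site. The 7 stretches of 60 bases are shown in the direction of transcription so that the position and surroundings of the element can be read, with the match in capitals. The search itself fixed all letters of the match but the N.
AARS1: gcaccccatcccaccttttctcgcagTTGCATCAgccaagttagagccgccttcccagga
CARS1: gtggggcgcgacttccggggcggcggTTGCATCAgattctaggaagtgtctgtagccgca
GARS1: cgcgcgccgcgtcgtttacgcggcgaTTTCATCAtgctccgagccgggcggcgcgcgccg
IARS1: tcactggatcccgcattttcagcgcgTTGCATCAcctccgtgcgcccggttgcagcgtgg
MARS1: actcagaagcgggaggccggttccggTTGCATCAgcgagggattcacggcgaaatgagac
NARS1: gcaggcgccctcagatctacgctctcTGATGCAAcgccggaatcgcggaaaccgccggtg
TARS1: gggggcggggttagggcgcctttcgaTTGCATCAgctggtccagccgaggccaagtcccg

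These stretches lie at chr16:70289660-70289719 (AARS1, minus strand), chr11:3057392-3057451 (CARS1, minus), chr7:30594819-30594878 (GARS1, plus), chr9:92293677-92293736 (IARS1, minus), chr12:57488038-57488097 (MARS1, plus), chr18:57621789-57621848 (NARS1, minus) and chr5:33440941-33441000 (TARS1, plus). CARS1, GARS1 and TARS1 have more than 1 annotated start, and the match lies in the window of 1 of them. Counted from the first transcribed base as 0, the match began at -187 in AARS1, -33 in GARS1, -13 in IARS1, -4 in MARS1, -2 in CARS1, 2 in TARS1 and 14 in NARS1. The E-box CACGTG was present in 4 of the 30 members (IARS1, CARS2, EARS2 and MARS2, 13.3%) and in 8.77% of all genes with a window. The palindromic motif of the factor NRF1 was present in MARS2, which is 3.33% of members, and in 1.52% of all genes.

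No synthetase gene passed the test between manganese and control. With limma and Benjamini-Hochberg adjustment over all 13407 genes, 0 of the 35 members had an adjusted p under 0.05. The background was 0.142% of genes called, with 18 genes higher (0.134%) and 1 lower (0.00746%) in manganese. At an unadjusted p under 0.05, 0 members were higher in manganese, where the background was 5.97%, and 3 were lower, RARS1, RARS2 and LARS2, which is 8.57% against a background of 6.85%. The share of lower members is near the background, so this count shows nothing particular to the synthetases. The same 3 genes had manganese arrays that all lay below all controls, 8.57% of members against 9.26% of all genes. For 0 members did the manganese arrays all lie above the controls, where the background was 10.5%.

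The intervals set limits on what could have been missed. Across the 35 members the upper bounds of the 95% intervals reached 0.61 on the log2 scale at most, for VARS1. An increase of 1 log2 unit in manganese therefore lay outside every interval. The lower bounds reached -1.71, for RARS2. A decrease of 1 log2 unit lay inside the intervals of RARS1, RARS2, GARS1 and IARS1. A total of 27 members (77.1%) had log2 fold changes within 0.25 of zero, as did 72.9% of all genes tested. The count of 3 lower genes depended on single arrays. It was 7 without control 2, with GARS1, IARS1, NARS1 and IARS2 added, and 1, RARS1, without manganese 1. Without control 1 there were 4, MARS1, RARS1, PARS2 and RARS2, and KARS1 was higher at an unadjusted p under 0.05. The count over all 13407 genes moved as well. It was 918 lower with all arrays, 1617 without control 2 and 404 without manganese 1. Without control 1, 861 genes were lower and 1053 higher.

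**Figure D1:**
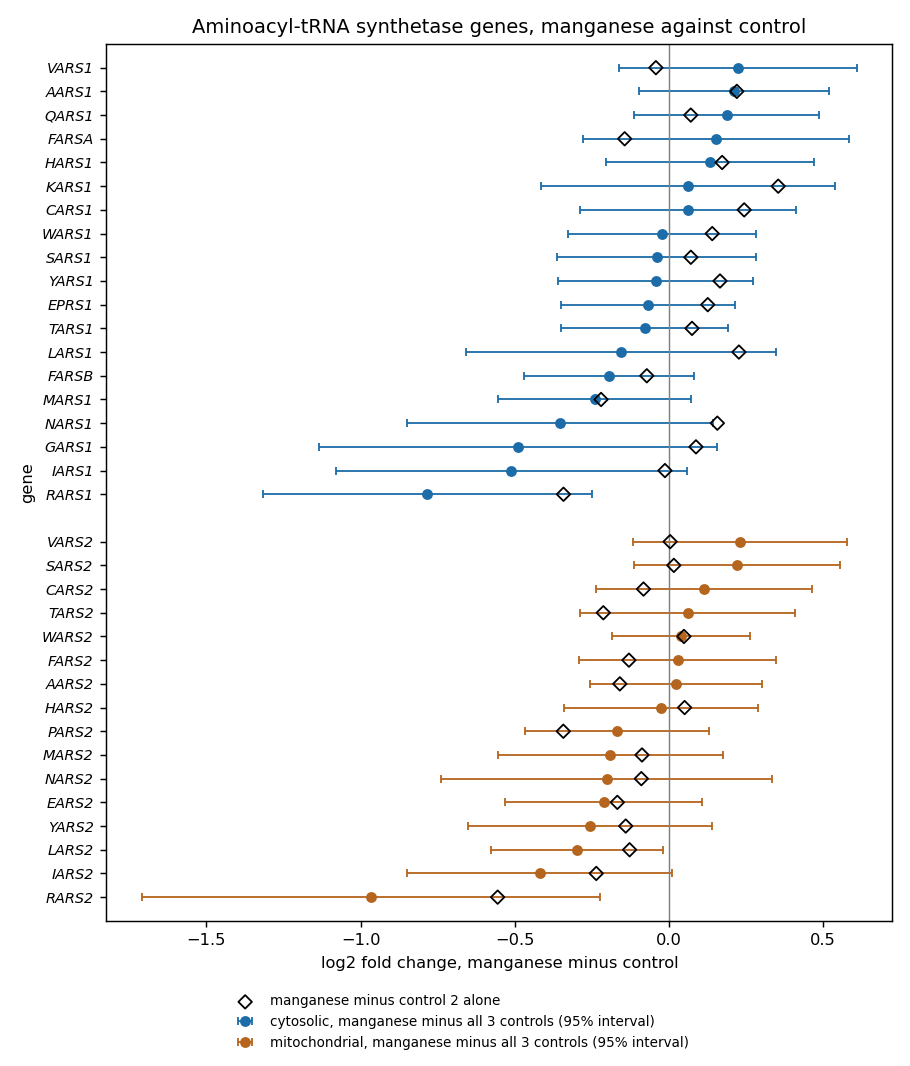
Log2 fold change (manganese minus control, x axis) for each of the 35 synthetase genes, cytosolic above and mitochondrial below. Filled points are against all 3 controls with 95% intervals from limma, and open diamonds are against control 2 alone. RARS1 at -0.78 and RARS2 at -0.97 are the lowest of their compartments, and the intervals of RARS1, RARS2 and LARS2 are the ones that exclude 0.

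The lowest values in both compartments belonged to the arginyl-tRNA synthetases. RARS1 encodes the cytosolic enzyme, which sits in the multi-synthetase complex. Its log2 values were 6.94, 6.92 and 6.89 on the manganese arrays and 8.27, 7.26 and 7.58 on the controls. The manganese arrays lay close together below every control, and control 1 was the highest array. The log2 fold change was -0.78 with an SE of 0.23 (95% interval -1.32 to -0.25, unadjusted p 0.00947, limma adjusted p 0.278). Its other probe set gave -0.77, with non-overlapping groups as well. Against control 2 the difference was -0.34, and without control 1 it was -0.50. The unadjusted p of RARS1 stayed under 0.05 in each of the 15 alternative settings tried, with values between 0.00104 and 0.0291 and adjusted p-values between 0.0592 and 0.770.

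RARS2 encodes the mitochondrial arginyl-tRNA synthetase, whose loss causes a pontocerebellar hypoplasia in humans. It had 7.61, 8.29 and 8.16 in manganese and 9.75, 8.58 and 8.64 in controls. The groups did not overlap, although the gap between manganese 2 and control 2 was small beside the spread within either group. The log2 fold change was -0.97 (SE 0.32, 95% interval -1.71 to -0.23, unadjusted p 0.0169, limma adjusted p 0.317), the lowest of the 35 members. It was -0.56 against control 2 and -0.59 without control 1. A single probe set reads RARS2, so there is no second reading of it. Its unadjusted p was above 0.05 without manganese 1 (0.0637) and against control 2 alone (0.0742).

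The promoter windows of these genes are shown because theirs were the largest differences of the set. Neither window holds TGATGNAA, CACGTG or the NRF1 motif on either strand. The RARS1 window is chr5:168486221-168486520 on the plus strand, and the RARS2 window is chr6:87589938-87590237 on the minus strand.
RARS1: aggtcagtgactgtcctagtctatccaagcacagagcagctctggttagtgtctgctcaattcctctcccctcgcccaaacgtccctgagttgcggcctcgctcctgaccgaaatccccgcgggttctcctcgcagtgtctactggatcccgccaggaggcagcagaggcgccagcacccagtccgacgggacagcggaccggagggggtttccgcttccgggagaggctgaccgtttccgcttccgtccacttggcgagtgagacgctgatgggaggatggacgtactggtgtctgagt
RARS2: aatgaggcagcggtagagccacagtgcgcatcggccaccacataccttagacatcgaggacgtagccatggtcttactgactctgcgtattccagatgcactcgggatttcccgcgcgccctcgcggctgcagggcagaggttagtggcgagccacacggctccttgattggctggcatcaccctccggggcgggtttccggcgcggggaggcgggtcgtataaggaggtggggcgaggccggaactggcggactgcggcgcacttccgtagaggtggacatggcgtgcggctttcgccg

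**Figure D2:**
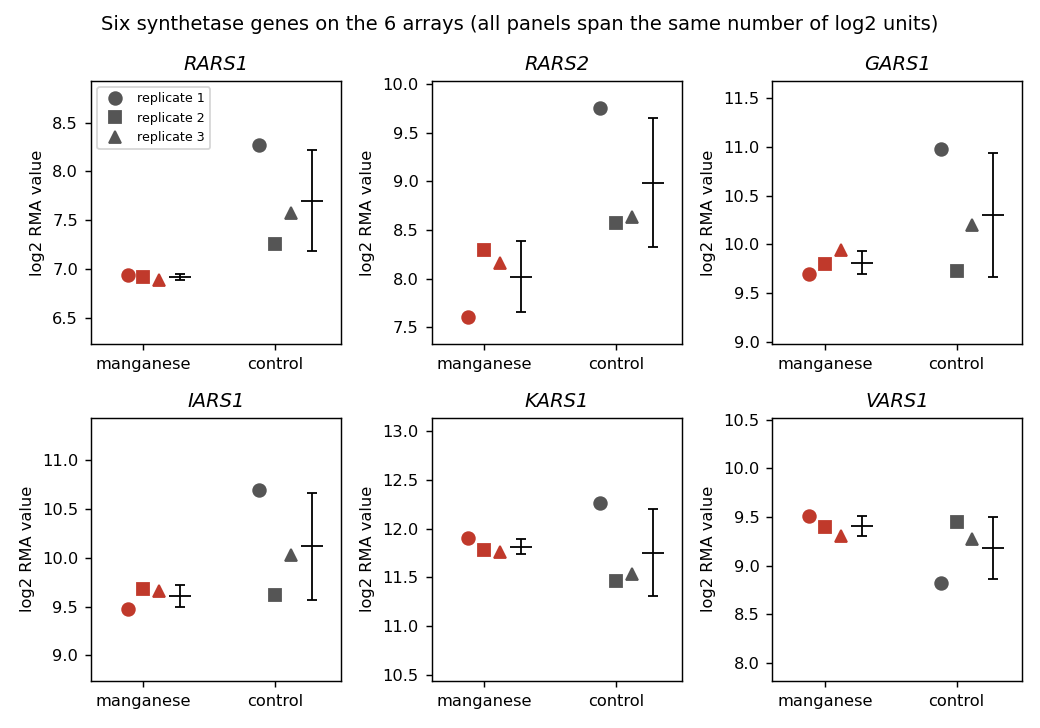
Log2 RMA values of 6 synthetase genes on each array, manganese at the left of each panel and control at the right. Symbols mark the replicate number, and the bar beside each group is the mean ± SD (n = 3). RARS1 and RARS2 do not overlap between groups, while in GARS1, IARS1 and KARS1 control 1 is the highest array and in VARS1 it is the lowest.

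The 19 cytosolic enzymes had 7 positive and 12 negative log2 fold changes, with a median of -0.04, where all genes tested had a median of 0.02. Against control 2 alone the median of the cytosolic genes was 0.09, with 13 of 19 positive. The sign of the cytosolic median therefore depends on the controls used. Centring the arrays on housekeeping genes also turned it, to 0.0092, as did leaving out manganese 3, to 0.034. The 10 housekeeping genes used were themselves not level. Of these, 7 were lower in manganese, the median was -0.10, and they ranged from -0.56 (SNRPD3) to 0.46 (GPI).

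Of the 13 cytosolic enzymes linked to ATF4, 3 had positive and 10 had negative log2 fold changes, and the median was -0.07. Of these 13, 0 had an unadjusted p under 0.05 in either direction, where the background was 12.8%. Against control 2 the median was 0.13 with 10 of 13 positive. AARS1, the alanine enzyme, had 8.74, 8.60 and 8.40 in manganese and 8.23, 8.36 and 8.53 in controls. It was higher by 0.21 with both probe sets and by 0.22 against control 2, with overlapping groups and an adjusted p of 0.525. CARS1, the cysteine enzyme, had 8.89, 8.88 and 8.50 in manganese and 8.70, 8.51 and 8.88 in controls, a difference of 0.06 that was 0.24 against control 2. MARS1, the methionine enzyme of the multi-synthetase complex, had 9.24, 9.27 and 9.11 in manganese and 9.24, 9.43 and 9.68 in controls. Its difference was -0.24, or -0.22 against control 2, and its 4 passing probe sets ranged from -0.29 to -0.03. TARS1, the threonine enzyme, differed by -0.08, and WARS1, the tryptophan enzyme that interferon induces, by -0.02. SARS1 for serine and YARS1 for tyrosine both differed by -0.04, and EPRS1, which carries glutamyl and prolyl enzymes in one protein, by -0.07. The groups overlapped in the probe set used for each of these genes. In dimmer passing probe sets they did not overlap for MARS1, at -0.29 and -0.26, or for TARS1, at -0.27, all lower in manganese.

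In other members of the same list control 1 lay far above the rest. GARS1, the glycine enzyme, whose mutations cause Charcot-Marie-Tooth neuropathy, had 9.70, 9.80 and 9.94 in manganese and 10.98, 9.73 and 10.20 in controls. Control 1 stood more than 1 log2 unit above the manganese arrays, whereas control 2 lay among them. The log2 fold change was -0.49 (95% interval -1.13 to 0.16, adjusted p 0.483), and it was 0.09 against control 2 and -0.15 without control 1. IARS1, the isoleucine enzyme of the multi-synthetase complex, had 9.47, 9.68 and 9.66 in manganese and 10.70, 9.62 and 10.03 in controls. Its difference was -0.51 (95% interval -1.08 to 0.06), with -0.54 to -0.50 over 4 probe sets, and it was -0.01 against control 2. NARS1, the asparagine enzyme, had 8.48, 8.42 and 8.73 in manganese and 9.20, 8.39 and 9.11 in controls, a difference of -0.35 that was 0.16 against control 2. A dimmer NARS1 probe set gave -0.69 with non-overlapping groups and an adjusted p of 0.262 in a fit over probe sets. LARS1, the leucine enzyme, which also acts as a leucine sensor for mTORC1, had 7.87, 7.78 and 7.93 in manganese and 8.55, 7.63 and 7.87 in controls, a difference of -0.16 that was 0.23 against control 2.

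Of the 7 genes with TGATGNAA in the promoter stretches shown above, AARS1 and CARS1 had positive and TARS1, MARS1, NARS1, GARS1 and IARS1 negative log2 fold changes, between -0.51 and 0.21. Against control 2 they lay between -0.22 and 0.24. Other genes that act with or under ATF4 were more spread out. Of the 21 on that list 14 had positive changes, with a median of 0.10, and 0 passed the adjusted threshold. At an unadjusted p under 0.05, 6 were higher and 3 lower in manganese, 28.6% and 14.3% of the list beside backgrounds of 5.97% and 6.85%. Control 1 was the lowest array for 11 of the 21 (52.4%, background 37.1%) and the highest for 6 (28.6%, background 27.9%). The part of control 1 in these counts was not tested. The lowest p-values were those of DDIT4, an inhibitor of mTORC1, at 0.95 (95% interval 0.59 to 1.31), CHAC1, which degrades glutathione, at 0.81 (0.46 to 1.16), STC2, a secreted glycoprotein, at 0.52 (0.26 to 0.78) and SESN2, a leucine-binding regulator of mTORC1, at 0.66 (0.23 to 1.10). Against control 2 they were at 0.69, 0.86, 0.54 and 0.34. The 3 lower genes were VLDLR at -0.68, PSAT1 at -0.35 and EIF2AK1 at -0.58, or -0.44, -0.17 and -0.15 against control 2. CHAC1 also holds TGATGNAA in its window, as do ASNS and SLC3A2. The upper bound of 0.61 over all synthetases lies just above the lower bound of DDIT4, 0.59. The difference between DDIT4 or CHAC1 and any synthetase was not tested.

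**Figure D3:**
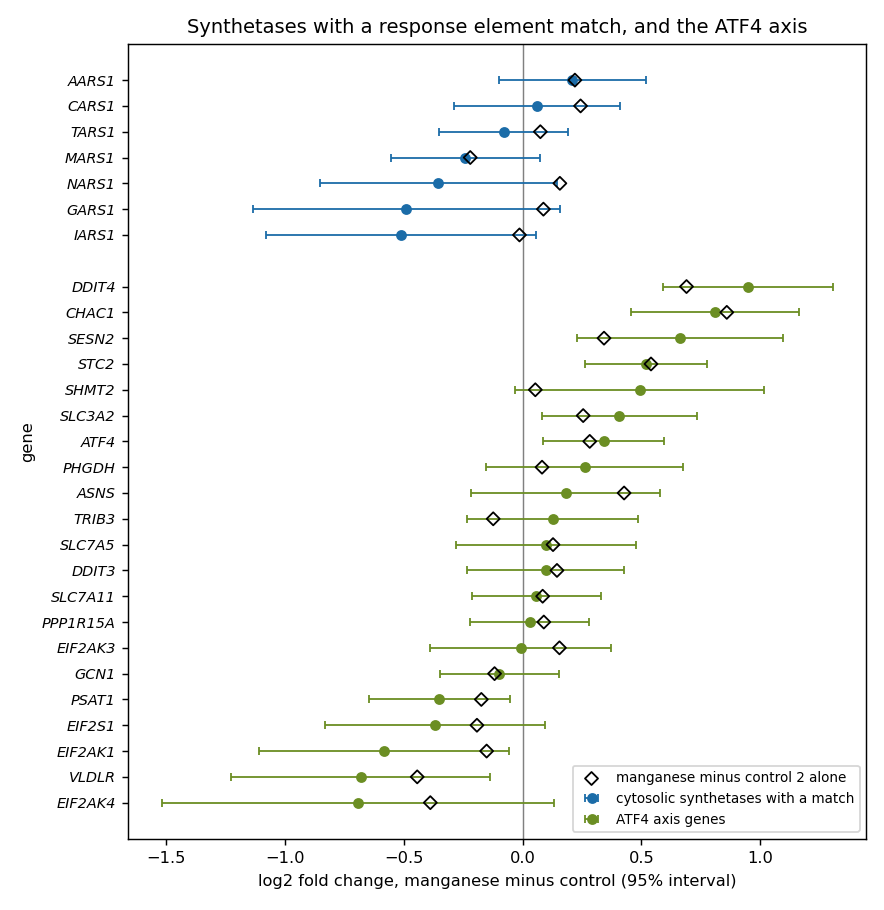
Log2 fold change (manganese minus control, x axis, with 95% intervals) of the 7 cytosolic synthetases with TGATGNAA in the promoter window (top) and of the 21 genes of the ATF4 list (bottom). Open diamonds are against control 2 alone. The 7 synthetases lie between -0.51 and 0.21, and DDIT4 at 0.95 and CHAC1 at 0.81 lie farthest to the right.

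The 6 cytosolic enzymes outside the ATF4 list had a median of 0.10, with 4 positive, and -0.00 against control 2. KARS1, the lysine enzyme, had 11.91, 11.78 and 11.76 in manganese and 12.27, 11.46 and 11.54 in controls. All manganese arrays lay above control 2 and control 3 and below control 1. The log2 fold change was 0.06 with all controls, 0.35 against control 2 and 0.32 without control 1, and both probe sets gave the same picture. Its unadjusted p was under 0.05 against control 2 and without control 1, with adjusted p-values of at least 0.216 in all settings. QARS1, the glutamine enzyme, had 11.73, 11.71 and 11.52 in manganese and 11.25, 11.58 and 11.56 in controls, a difference of 0.19. HARS1, the histidine enzyme, differed by 0.13. The phenylalanine enzyme is built from a subunit pair, and FARSA differed by 0.15 where FARSB differed by -0.20. FARSB has 4 passing probe sets that ranged from -0.37 to -0.20. In 3 of them the groups did not overlap, while in the brightest one, used for the test, manganese 3 and control 2 were level at 8.15.

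The 7 enzymes of the complex had a median of -0.16 with 5 negative, and 0.07 against control 2 with 4 of 7 positive. On each array the median of their values, centred on each gene's mean over the 6 arrays, was -0.08, -0.06 and -0.04 in manganese and 0.48, -0.16 and 0.15 in controls 1, 2 and 3. Control 1 was thus far above the other arrays for this group. Of the scaffold proteins that hold the complex together AIMP1 was measured, with a difference of -0.03. AIMP2 and EEF1E1 were not analysed here. By class, the 18 class I enzymes had a median of -0.17 with 12 negative, and the 16 class II enzymes a median of -0.00 with 8 negative. The difference between classes was not tested. Against control 2 the medians were -0.06 and 0.03.

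**Figure D4:**
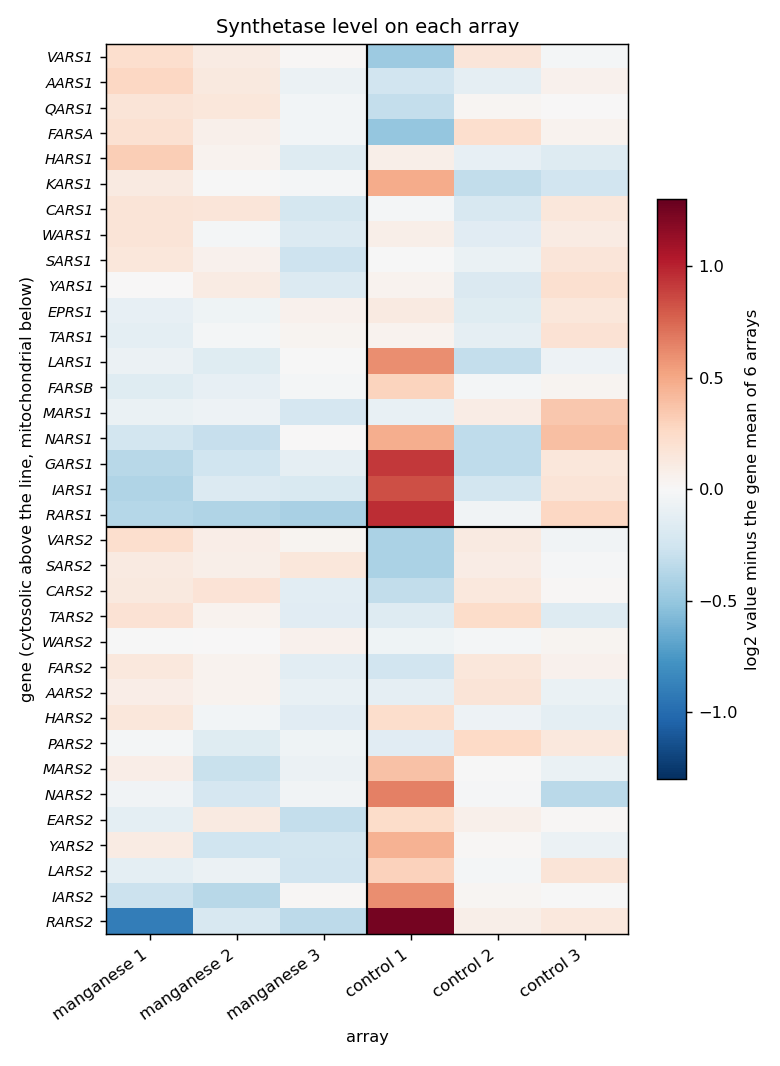
Level of each synthetase gene on each array as the log2 value minus the gene's mean over the 6 arrays (colour), with manganese arrays at the left, controls at the right, cytosolic genes above the line and mitochondrial genes below. The column of control 1 holds most of the strong colours, red for RARS1, GARS1, IARS1 and RARS2 and blue for FARSA, VARS1, SARS2 and VARS2, while the deepest blue is manganese 1 for RARS2.

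Spread within the controls was wider than within manganese for 29 of the 35 members (82.9%), as it was for 74.7% of all genes tested. The median SD over members was 0.12 in manganese and 0.22 in controls (n = 3 each), beside 0.11 and 0.19 over all genes. Control 1 was the highest array for 15 members (42.9%), where the background was 27.9%, and the lowest for 11 (31.4%), where the background was 37.1%. It exceeded the mean of the other 5 arrays by more than 0.5 for 10 members, which were GARS1, IARS1, KARS1, LARS1, NARS1, RARS1, IARS2, NARS2, RARS2 and YARS2. That is 28.6% of members, beside 14.2% of all genes. Control 1 also had one of the low spike-in levels given above. Control 3 had the lowest level, and it correlated with the other arrays at r = 0.981 to 0.992. The 3' minus 5' log2 difference, used as a measure of RNA quality, was 0.72 for GAPDH and 3.69 for ACTB on control 1. On the manganese arrays it was 0.69 to 0.73 and 3.65 to 3.77. The part of labelling or RNA quality in these values was not tested.

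The 16 mitochondrial enzymes had 7 positive and 9 negative log2 fold changes, with a median of -0.10. In contrast to the cytosolic median, theirs was negative in all 15 alternative settings, and it was -0.13 against control 2, with 12 of 16 negative. These settings reuse the same arrays, and the order of the 2 medians was not fixed. The cytosolic median was the lower with the mean of passing probe sets, at -0.070 against -0.056. It was also the lower without manganese 2, at -0.079 against -0.052. Without control 2 it was the lower again, at -0.15, and the mitochondrial median was less negative. That was the lowest cytosolic median with any 1 array left out. Whether the compartments differ was not tested, since the members were chosen with results of these data known. Beside RARS2, the lowest values were those of IARS2 and LARS2. LARS2, the leucine enzyme, mutated in Perrault syndrome, had 7.67, 7.73 and 7.55 in manganese and 8.10, 7.78 and 7.97 in controls. The groups did not overlap, with manganese 2 only just below control 2. The difference was -0.30 (SE 0.12, 95% interval -0.58 to -0.02, unadjusted p 0.0391, limma adjusted p 0.367), and -0.13 against control 2. Its unadjusted p was under 0.05 in 5 of the 15 alternative settings, and it was 0.0605 with an intensity trend, 0.0513 with median centring and 0.0950 with housekeeping centring. IARS2, the isoleucine enzyme, had 7.33, 7.26 and 7.63 in manganese and 8.22, 7.64 and 7.61 in controls, so that manganese 3 lay above control 3. Its difference was -0.42 (95% interval -0.85 to 0.01), and -0.24 against control 2.

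The groups of the other 13 mitochondrial enzymes overlapped. PARS2, the proline enzyme, had 6.87, 6.74 and 6.84 in manganese and 6.76, 7.16 and 7.04 in controls, a difference of -0.17. It was -0.34 against control 2. YARS2 for tyrosine, the mitochondrial member with TGATGNAA in its window, differed by -0.26, and MARS2 for methionine by -0.19. NARS2, the asparagine enzyme, had 6.58, 6.41 and 6.58 in manganese and 7.28, 6.61 and 6.28 in controls, a difference of -0.20. EARS2, the glutamate enzyme, differed by -0.21 and had 4 passing probe sets between -0.21 and 0.06. At the other end VARS2 for valine differed by 0.23 and SARS2 for serine by 0.22, and against control 2 these were 0.00 and 0.02. Control 1 was their lowest array, at 7.69 for VARS2 and 7.24 for SARS2. AARS2, CARS2, FARS2, HARS2, TARS2 and WARS2 lay between -0.02 and 0.11. WARS2 varied least of all members, with 5.85, 5.87 and 5.92 in manganese and 5.80, 5.83 and 5.89 in controls, although its second passing probe set gave -0.10 against 0.04.

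Enzymes for the same amino acid can be set side by side in 14 pairs, all read on the same 6 arrays. In 6 pairs both enzymes were lower in manganese, in 4 both were higher, and in the other 4 the signs differed. Phenylalanine was represented by FARSA, at 0.15 beside 0.03 for FARS2. The other subunit, FARSB, was at -0.20, so its sign differs from that of FARS2. Against control 2 the signs matched in 7 of the 14 pairs. RARS1 and RARS2 were at -0.78 and -0.97, IARS1 and IARS2 at -0.51 and -0.42, and VARS1 and VARS2 at 0.22 and 0.23. Against control 2 these pairs were at -0.34 and -0.56, -0.01 and -0.24, and -0.04 and 0.00. Both enzymes were also below control 2 for methionine, with MARS1 at -0.22 and MARS2 at -0.09. The same held for phenylalanine, with FARSA at -0.14 and FARS2 at -0.13.

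**Figure D5:**
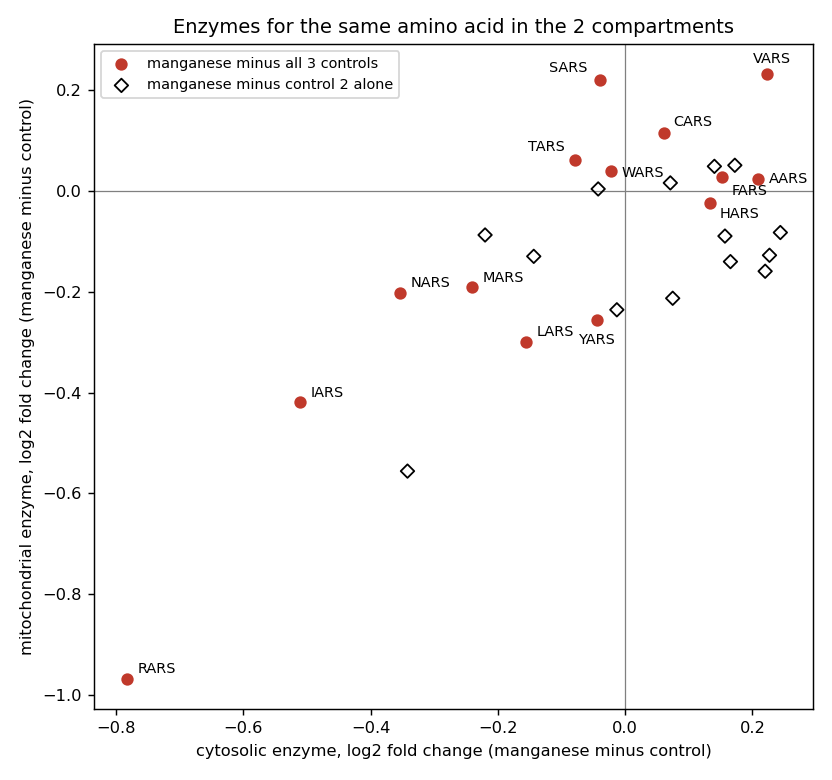
Log2 fold change (manganese minus control) of the cytosolic enzyme (x axis) and of the mitochondrial enzyme (y axis) for the 14 amino acids with an enzyme of each kind in the set. Red points are against all 3 controls and carry the name of the pair, and open diamonds are against control 2 alone. The arginine pair lies at the lower left, at -0.78 and -0.97, and stays the lowest against control 2, at -0.34 and -0.56.

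HARS1 and HARS2 are neighbours that are transcribed away from each other. In RefSeq their first transcribed bases lie 85 bases apart on chromosome 5, HARS1 on the minus strand and HARS2 on the plus strand, and their promoter windows share 184 bases. The shared stretch, chr5:140691321-140691504, is shown on the plus strand because the pair can be read as both outputs of 1 region.
HARS1 and HARS2: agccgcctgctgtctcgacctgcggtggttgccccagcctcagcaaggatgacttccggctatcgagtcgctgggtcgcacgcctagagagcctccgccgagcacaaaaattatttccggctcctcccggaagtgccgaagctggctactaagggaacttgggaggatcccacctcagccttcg

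HARS1 had log2 values of 10.28, 10.01 and 9.80 in manganese and 10.04, 9.86 and 9.80 in controls. HARS2 had 7.89, 7.71 and 7.60 in manganese and 7.98, 7.68 and 7.62 in controls. In both genes the arrays of the groups interleaved. The differences were 0.13 (95% interval -0.20 to 0.47) and -0.02 (-0.34 to 0.29).

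Genes that work next to the synthetases also had no member past the adjusted threshold. Elongation factor 1 carries charged tRNA to the ribosome, and 2 of its 5 measured subunits (40%) were higher at an unadjusted p under 0.05, where the background was 5.97%. EEF1D was higher by 0.36 (adjusted p 0.356) and EEF1A2, the neuronal and muscle form, by 0.45 (adjusted p 0.361), or by 0.17 and 0.21 against control 2. Control 1 was the lowest array for both, at 12.19 for EEF1D and 8.74 for EEF1A2. The other 3 subunits were negative, with EEF1A1 at -0.25 and EEF1B2 at -0.16, and the median of the 5 was -0.03. Mitochondria charge glutamine tRNA through EARS2 and an amidotransferase, whose subunits QRSL1, GATB and GATC differed by -0.36, 0.08 and -0.07. The 11 measured genes of tRNA maturation and export had a median of -0.10, with 6 negative. Of these 11, 0 had an unadjusted p under 0.05 in either direction, where the background was 12.8%. TRNT1, which adds the CCA end of tRNA, differed by -0.33 and POP1, a subunit of RNase P, by -0.20. Of 10 measured mitochondrial translation factors 7 were negative, with a median of -0.08. MRRF, the ribosome recycling factor, at -0.46 (adjusted p 0.332) and TSFM, an elongation factor, at -0.26 (adjusted p 0.361) had an unadjusted p under 0.05, 20% of the list where 6.85% of all genes were lower, and against control 2 they were at -0.26 and -0.21.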

How the data were processed

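Values were deposited by the authors as log2 expression per probe set, summarized by RMA. Per the submitters' processing notes the program was Affymetrix Expression Console. Its version and scanner intensities were not used here, so background correction and normalization could not be varied. Of 49395 probe sets, 102 were Affymetrix controls, 44988 had 1 gene symbol, 1832 several and 2473 are unnamed here. By Entrez number 44961 matched RefSeq, and 0 symbols changed. The filter required a level over the 40th percentile in 3 or more of the 6 arrays, and the brightest passing probe set stood for its gene. Probe sets that stand for EARS2, FARSB, IARS2 and YARS1 are marked as shared, and those for MARS1 and VARS2 as possibly cross-hybridizing. Groups were compared with limma 3.58.1 in R 4.3.3 (lmFit, eBayes, two-sided, group as the only term), Benjamini-Hochberg adjusted over 13407 genes at a threshold of 0.05. The script was tested on simulated data. The number of arrays limits precision. Same-numbered arrays did not pair: their deviations from group means correlated at -0.305, 0.153 and -0.272. All members, and up to 4 genes of each neighbouring list by smallest p, were named. Of the ATF4 list, the genes lower at an unadjusted p under 0.05 and those with TGATGNAA were named as well. Members and lists were chosen with earlier results of these data known. Promoters are from RefSeq, GRCh38.p14.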

Additional observations from a re-analysis of the deposited data

How the results depend on the processing

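No synthetase passed the adjusted threshold in limma in any of 15 alternative settings, and 16 of the 35 members kept their sign in all of them. The filter on dim probe sets (60th percentile, or none), an intensity trend, robust estimation and median centring turned no member's sign. Housekeeping centring used 10 genes and gave 41 genes called over the whole array, against 19. It turned SARS1 to 0.013, WARS1 to 0.031, YARS1 to 0.0092 and HARS2 to 0.028. The mean of the passing probe sets gave 6 members lower at an unadjusted p under 0.05, where 889 of all 13407 genes were lower. It turned AARS2 to -0.045 and WARS2 to -0.029. Against control 2 alone, with the lone control taken to vary as manganese arrays do, 5 genes were called, 1 member was higher at an unadjusted p under 0.05 and the cytosolic median was 0.088. That setting turned 15 members, to 0.13 for EPRS1, -0.14 for FARSA, 0.088 for GARS1, 0.23 for LARS1, 0.16 for NARS1, 0.071 for SARS1, 0.075 for TARS1, -0.042 for VARS1, 0.14 for WARS1, 0.17 for YARS1, -0.16 for AARS2, -0.083 for CARS2, -0.13 for FARS2, 0.051 for HARS2 and -0.21 for TARS2. With the replicate block 6 genes and 0 members were called, although the numbers share no stated batch. At an unadjusted p under 0.05, 2 members were lower there, beside 783 of all genes. Leaving out 1 array at a time gave 0 to 43 genes called and a cytosolic median of -0.15 to 0.034. At an unadjusted p under 0.05, 0 to 1 members were higher and 1 to 7 lower. Of all genes, 428 to 1393 were higher and 404 to 1617 lower. The members whose sign turned in these fits ranged from -0.030 to 0.19 (CARS1), -0.058 to 0.30 (FARSA), -0.084 to 0.32 (KARS1), -0.35 to 0.11 (LARS1), -0.12 to 0.084 (SARS1), -0.11 to 0.062 (WARS1), -0.15 to 0.047 (YARS1), -0.030 to 0.11 (AARS2), -0.018 to 0.21 (CARS2), -0.088 to 0.11 (FARS2), -0.10 to 0.084 (HARS2), -0.42 to 0.078 (NARS2) and -0.017 to 0.20 (TARS2). Except where an array was left out, the cause was not tested.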
